A study of Mus musculus with 2 samples.

Results

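The data described here are the UMI counts of 33 genes for proteins that visceral endoderm secretes, takes up or transports, out of 33456 genes in the deposited tables. They were chosen by symbol, and all 33 symbols were found in the gene table of both libraries. The libraries are 10x Genomics 5′ single-cell RNA libraries of mouse yolk sac of the B6 strain, 1 from Baf155 CKO and 1 from wild-type (WT) embryos. Per the labels, yolk sacs from stages E9.5 and E10.5, as many of each, were pooled within a genotype, dissociated with 0.25% collagenase and frozen, and live Ter119-negative cells were sorted; the tissue label calls the material nuclei. The number of pooled embryos, the Cre driver and the floxed exon of the conditional knockout are not stated in the labels. With 1 library per genotype there was no test between genotypes: every interval below is a 95% interval for counting error only, and genotype cannot be told apart from differences between pools, sorts or libraries.

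The extra-embryonic visceral endoderm is the outer epithelium of the yolk sac and serves the embryo as its liver, gut and kidney before those organs work. Its cells take up maternal proteins through cubilin, amnionless and megalin at the apical surface, degrade them in lysosomes, and secrete plasma proteins and apolipoprotein-bearing lipoproteins towards the vitelline circulation. Alpha-fetoprotein, transthyretin, transferrin and the apolipoproteins are the classic products of this tissue, and most of the 33 genes are used later by the fetal liver, the intestine or the kidney.

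In Baf155 CKO, 27314411 UMIs fell on 865 barcodes, between 6328 and 96471 on each. In WT, 24538853 UMIs fell on 815 barcodes, between 6054 and 114332 on each, and 1 barcode occurred in both libraries. After filters on genes, mitochondrial UMIs and doublets, 841 Baf155 CKO and 784 WT cells were kept, with median depths of 28268 and 28186 UMIs. Smarcc1, which encodes Baf155, stood at 24.0 CPM (UMIs scaled to the total UMIs of the cells; 22.2 to 25.9) over the Baf155 CKO cells and at 94.9 CPM (91.0 to 98.8) over the WT cells.

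Endoderm cells were defined as cells in which Afp, Ttr and Apoa1 together made at least 1% of the UMIs. No Baf155 CKO cell passed, 0 of 841, which allows a share of up to 0.357% at 3 cells (exact binomial upper limit 0.438%), against 27 of 784 WT cells (3.44%, exact binomial interval 2.28 to 4.97%). The gate lay in a wide gap. The Baf155 CKO cells nearest to it had 0.709%, 0.452% and 0.354% of their UMIs in the 3 genes and the next 0.0359%. The WT cells ran up to 6.6%, with a median of 3.93% and a lowest value of 1.33% inside the gate, and the nearest cells outside had 0.314% and 0.312% and then 0.0802%. No Baf155 CKO cell thus reached even the lowest of the 27 WT cells. Before the mitochondrial filter 42 WT barcodes passed the gate, and 14 of them had over 10% mitochondrial UMIs (33.3%, against 1.81% of the other WT barcodes), while 0 of all 865 Baf155 CKO barcodes passed. The 27 WT cells had a median of 28260 UMIs (6876 to 49658), 747661 in all. Of these, 12 had Xist UMIs only and 9 Y-linked UMIs only, so they came from embryos of both sexes.

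**Figure D1:**
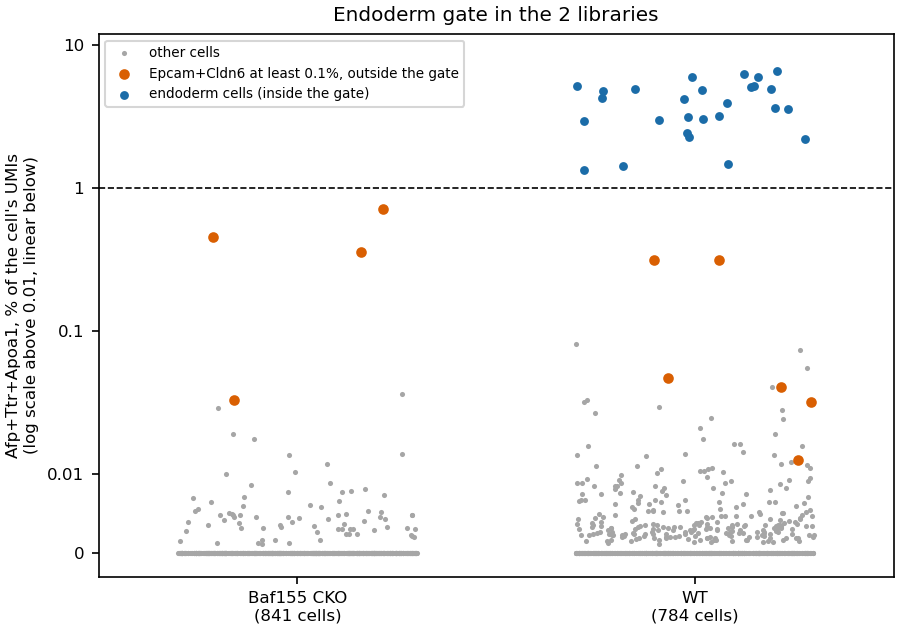
Share of each kept cell's UMIs that Afp, Ttr and Apoa1 made up (vertical axis, log scale above 0.01% and linear below), for the 841 Baf155 CKO cells on the left and the 784 WT cells on the right. The 27 WT cells above the dashed 1% line are the endoderm cells, no Baf155 CKO cell lies above it, and the orange points are 4 Baf155 CKO and 6 WT cells with Epcam and Cldn6 UMIs that lay below it.

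The label visceral endoderm was checked with genes that neither the gate nor the list of 33 used. Of 12 such genes, 11 had enough UMIs to be compared and 10 were at least 2-fold higher in the WT endoderm cells than in the other WT cells, where 17.9% of 12341 genes were. The exception was Foxa1, with 0 UMIs in the endoderm cells and 1.5 CPM in the rest. A gene was compared at 20 UMIs or more over both sets. Apoc3, Cdh1, Hnf4a and Serpinc1 reached this through their endoderm UMIs (162, 76, 67 and 45), with 0.342 CPM or less in the rest. For these genes the direction was fixed by that minimum, so the count of 10 is a description and not a test of the label. Krt18 and Krt8, keratins of simple epithelia, stood at 1251 and 686 CPM, and Cldn6, a tight junction gene of early epithelia, at 675 CPM in endoderm cells and 3.64 CPM in the rest. Hnf4a, a nuclear receptor required in visceral endoderm for this secretory programme, had 67 UMIs (89.6 CPM), against 0.0855 CPM in the rest. Markers of other types were low. Erythroid markers summed to 362 CPM in the endoderm cells and 62627 CPM in the other WT cells, with none of 5 at 0; stromal markers to 21.4 and 1722 CPM, with 2 of 7 at 0; endothelial markers to 24.1 and 296 CPM, with 4 of 8 at 0; progenitor markers to 1.34 and 546 CPM, with 7 of 8 at 0; macrophage markers to 10.7 and 253 CPM, with 5 of 6 at 0; and megakaryocyte markers to 2.68 and 86.8 CPM, with 6 of 7 at 0. The parietal endoderm list summed to 486 and 882 CPM, with Thbd, Plat and Fst at 0 in the endoderm cells. Of its 8 genes 2 were at least 2-fold higher there, Pth1r (52.2 and 6.63 CPM, a ratio of 7.87, 5.39 to 11.2) and Lama1 (2.31, 1.03 to 4.53), and 2 at least 2-fold lower. The trophoblast list summed to 221 and 24.8 CPM, of which the keratin Krt7 made 213 CPM, with Prl3d1, Prl2c2 and Tpbpa at 0. The mesothelium list summed to 214 and 96.3 CPM, of which Podxl, a gene of apical membranes in several epithelia, made 211 CPM, with Upk1b, Msln and Wt1 at 0.

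The 33 genes made up 8.83% of all UMIs of the WT endoderm cells, from 3.57% in the lowest cell to 12.8% in the highest, with a median of 8.29%. These 27 cells held 3.1% of the UMIs of the WT library but 66028 of its 68218 UMIs of the 33 genes (96.8%). The load was uneven. Ttr, Apoa1 and Rbp4 alone gave 50.9% of it, the top 5 genes 68.4% and the top 10 genes 89.5%. By level, 3 genes stood at 10000 CPM or more, 10 between 1000 and 10000, 15 between 100 and 1000, 3 below 100 (Serpina1c, Gc and Fgl1), and Alb and Ahsg had no UMI. Because the 5′ protocol reads 1 tag per transcript molecule, these CPM levels were compared between genes without scaling to length. Afp, Ttr and Apoa1 set the gate, so their own levels there are a description of the rule.

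**Figure D2:**
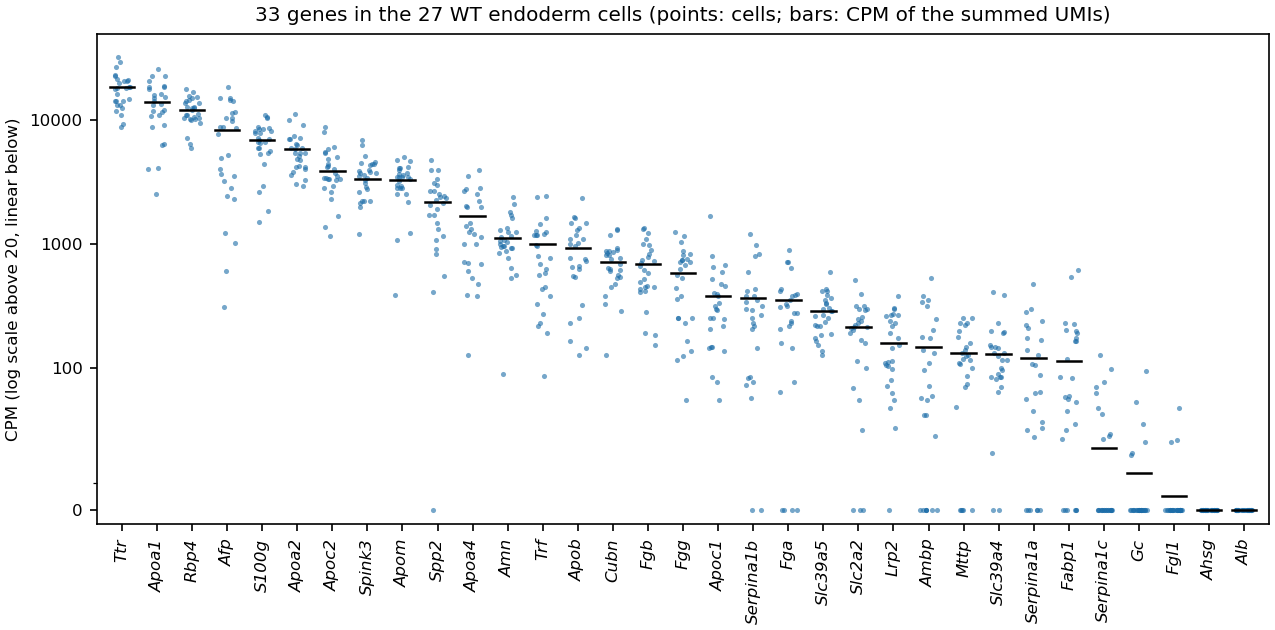
CPM of each of the 33 genes in each of the 27 WT endoderm cells (vertical axis, log scale above 20 CPM and linear below), genes ordered by the CPM of their summed UMIs (black bars). The order runs from Ttr at 18609 CPM to Alb and Ahsg at 0; Afp spans 312 to 18660 CPM over cells, while Rbp4 spans 5939 to 17913 CPM.

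The plasma carriers Ttr, Rbp4 and Afp were among the 4 most abundant genes with Apoa1, while Trf stood lower and Gc among the 5 lowest. Ttr, the carrier of thyroxine that also binds retinol-binding protein, stood at 18609 CPM (18301 to 18921) and ranged over cells from 8826 through a median of 18276 to 32204 CPM. Rbp4, the retinol carrier, stood at 12238 CPM (11989 to 12492) and varied least of the abundant genes, from 5939 through 12063 to 17913 CPM, with a coefficient of variation of 24.8%. Afp, the fetal albumin relative that binds fatty acids, stood at 8428 CPM (8221 to 8638), but its cells ran from 312 through 7814 to 18660 CPM, a 59.7-fold span with a coefficient of variation of 70.7%. Every one of the 27 cells had UMIs of all 3 genes, so the span of Afp lay in amount and not in presence. Trf, transferrin, the iron carrier, stood at 1006 CPM and ran from 86.8 through 773 to 2467 CPM. Spp2, a secreted phosphoprotein of the cystatin superfamily, stood at 2200 CPM and was missing in 1 cell. Ambp, which encodes alpha-1-microglobulin and bikunin, stood at 148 CPM with UMIs in 20 of 27 cells. Gc, the vitamin D binding protein, had 10 UMIs (13.4 CPM, 6.41 to 24.6) in 6 cells.

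Of the 33 genes, Alb and Ahsg were at 0 in the endoderm cells. Alb, serum albumin, had 0 UMIs in the 27 cells, which allows up to 4.01 CPM at 3 UMIs (exact Poisson upper limit 4.93 CPM), and 2 UMIs in all other WT cells, both in stromal cells. Ahsg, fetuin-A, had 0 UMIs in the kept cells of both libraries. Alb and Afp lie next to each other on mouse chromosome 5 in the same orientation (GRCm38, Alb 90460897 to 90476602 and Afp 90490737 to 90508907, plus strand), so neighbouring genes stood at 0 and at 8428 CPM in the same cells.

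Protease inhibitors and clotting proteins were of middling level. Spink3, a secreted Kazal-type trypsin inhibitor, was the exception at 3395 CPM (3264 to 3529), between 1221 and 6951 CPM over cells with a median of 3617. The alpha-1-antitrypsin genes Serpina1b, Serpina1a and Serpina1c stood at 373 CPM (331 to 419.6), 120.4 CPM (96.8 to 148) and 22.7 CPM (13.2 to 36.4), with UMIs in 25, 21 and 10 of 27 cells. These paralogs on chromosome 12 are near copies: their transcripts were 97.1% identical between Serpina1a and Serpina1b, 98.5% between Serpina1a and Serpina1c, and 96.8% between Serpina1b and Serpina1c, so reads could be split or lost between them and their separate levels are uncertain. The 3 chains of fibrinogen lie side by side on chromosome 3 and stood within 2-fold of each other, Fgb at 697 CPM (638 to 759), Fgg at 594 CPM (539.9 to 652) and Fga at 356 CPM (314 to 401). Fgb and Fgg had UMIs in all 27 cells and Fga in 23. Fgl1, a fibrinogen-like liver protein, had 4 UMIs in 3 cells.

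The letters just before the start sites of some of these genes are shown because genes of widely different level carried the same short motif there. Of the 33 genes, 27 had an entry in the RefSeq promoter table (GRCm38.p6), and the 250 bases before each start were searched on both strands for 6 short motifs. GTTAAT, an HNF1 half-site, was found in 11 of the 27 and in 7.49% of 27025 genes in the table. A gene was counted if any of its promoters held the motif. Serpina1a, Serpina1b and Serpina1c, which are near copies, were among the 11. The printed 150 bases end at the base before the start site, are given 5′ to 3′ on the gene's strand, and carry GTTAAT or its reverse complement ATTAAC in capitals.
Afp: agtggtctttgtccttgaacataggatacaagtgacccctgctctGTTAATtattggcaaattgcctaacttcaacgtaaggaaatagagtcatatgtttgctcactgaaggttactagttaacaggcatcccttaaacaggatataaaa
Alb: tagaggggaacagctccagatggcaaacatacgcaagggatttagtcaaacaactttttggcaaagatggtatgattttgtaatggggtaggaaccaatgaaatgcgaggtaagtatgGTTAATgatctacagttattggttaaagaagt
Fgb: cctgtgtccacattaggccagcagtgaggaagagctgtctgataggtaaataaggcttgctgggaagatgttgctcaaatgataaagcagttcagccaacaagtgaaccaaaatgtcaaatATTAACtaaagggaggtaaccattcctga
Serpina1a: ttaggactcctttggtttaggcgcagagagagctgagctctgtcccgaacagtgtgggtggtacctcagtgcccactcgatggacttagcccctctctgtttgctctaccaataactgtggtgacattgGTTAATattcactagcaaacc
Serpina1b: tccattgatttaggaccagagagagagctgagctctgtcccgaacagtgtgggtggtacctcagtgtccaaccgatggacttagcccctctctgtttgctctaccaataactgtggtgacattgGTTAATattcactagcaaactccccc
The intervals are chr5:90490564-90490713 (plus strand) for Afp, chr5:90460720-90460869 (plus strand) for Alb, chr3:83049864-83050013 (minus strand) for Fgb, chr12:103863620-103863769 (minus strand) for Serpina1a and chr12:103738190-103738339 (minus strand) for Serpina1b. The motif lay 105 to 100 bases before the start in Afp, 32 to 27 in Alb, 29 to 24 in Fgb, 21 to 16 in Serpina1a and 26 to 21 in Serpina1b. Alb, at 0 UMIs, and Afp, at 8428 CPM, thus both held it, and the Serpina1a and Serpina1b windows of 250 bases were 92.6% identical to each other. The remaining motifs were TGTTTGC, a FOXA-type motif (10 of 27, and 4.93% of all genes), and CAAAGT, an HNF4 half-site (9, and 14.1%). Also searched were TTGCNNAA, a C/EBP-type motif (13, and 10.8%), TATAAA (5, and 14.3%) and GGGCGG, a GC box (4, and 35.4%). A match of this kind describes letters and does not show binding.

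Apolipoproteins gave 7 of the 33 genes, beside the assembly factor Mttp. Apoa1, the main protein of high-density lipoprotein, stood at 14101 CPM (13833 to 14373) and ran over cells from 2553 through 13633 to 26121 CPM. Apoa2, its partner in the same particles, stood at 5876 CPM (2983 through 5439 to 11356 over cells). Apoc2, the cofactor of lipoprotein lipase, stood at 3888 CPM (1172 through 3554 to 8815). Apom, a lipocalin that carries sphingosine-1-phosphate, stood at 3328 CPM, and 1 cell fell to 389 CPM. Apoa4, made in the adult intestine, stood at 1681 CPM with a 31.2-fold span, from 129 through 1269 to 4016 CPM. Apob, the structural protein of chylomicrons and very-low-density lipoprotein, stood at 942 CPM (873 to 1014), and Mttp, the transfer protein that loads lipid onto it, at 134 CPM (109 to 163) with UMIs in 22 of 27 cells. Apoc1 was the lowest apolipoprotein at 384 CPM (341 to 431), although it is the neighbour of Apoc2 on chromosome 7. Fabp1, the cytosolic fatty acid binding protein of liver and gut, stood at 115 CPM and was patchy, with 0 in 6 cells, a median of 60.4 and a highest value of 623 CPM.

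The uptake receptors stood below the leading secreted products. Amn, amnionless, which brings cubilin to the apical surface, stood at 1132 CPM (1057 to 1210), Cubn, cubilin, at 718 CPM (659 to 782) and Lrp2, megalin, at 161 CPM (133 to 192). Amn and Cubn had UMIs in all 27 cells and Lrp2 in 26. S100g, calbindin-D9k, an intracellular calcium binder of absorptive epithelia, was the most abundant non-secreted member at 7007 CPM (6819 to 7200; 1522 through 7003 to 11070 over cells). Of the zinc importers, Slc39a5, a basolateral carrier in enterocytes, stood at 293 CPM (255 to 334) in all 27 cells, and Slc39a4, an apical one, at 132 CPM (108 to 161) in 25. Slc2a2, the glucose transporter GLUT2, stood at 217 CPM (185 to 253) in 24 cells.

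Related genes that are not among the 33 were counted in the same comparison of WT endoderm cells with the other WT cells. Of all genes compared there, 17.9% were at least 2-fold higher and 19.2% at least 2-fold lower. A gene was compared at 20 UMIs or more over both sets, so some entered through their endoderm UMIs alone. The lists held 38 plasma protein, 16 endocytic, 20 lipoprotein assembly, 15 metal, 15 apical epithelial and 14 HNF and GATA genes. Of these, in the same order, 11, 1, 5, 4, 0 and 2 had no UMI in the endoderm cells. Of 17 other plasma protein genes compared, 14 were higher and 1 lower, with, among the most abundant, Apoe at 7743 CPM (369 CPM in the rest), the antiplasmin gene Serpinf2 at 231 CPM and Apoc3 at 217 CPM. Apoc3, the neighbour of Apoa1 and Apoa4, had 162 UMIs in the endoderm cells and none in any other WT cell. Of 16 genes of the endocytic machinery, 13 were higher and 2 lower, led by the lysosomal proteases Ctsl (2314 CPM), Ctsb (1082 CPM) and Lgmn (728 CPM) and by Dab2 (669 CPM), the adaptor of cubilin and megalin. Of 15 lipoprotein assembly genes, 9 were higher and 1 lower. The 4 of highest level were P4hb at 356 CPM, the smaller subunit of the transfer protein complex, which at 193 CPM in the rest was not past 2-fold, Dgat2 (165 CPM), Sar1b (128 CPM, also not past 2-fold) and Soat2 (97.6 CPM). Of 12 metal genes, 7 were higher and 2 lower: the metallothioneins Mt1 and Mt2 stood at 9891 and 6012 CPM and the ferritin light chain Ftl1 at 8240 CPM, while the heavy chain Fth1 stood at 2696 CPM against 2819 CPM in the rest. Of 13 apical epithelial genes, 11 were higher and 0 lower, led by Krt18, Krt8, Cldn6 and Cldn7. Of 8 HNF and GATA factors, 5 were higher and 0 lower: Hnf4a, Foxa3 (46.8 CPM), Foxa2 (41.5 CPM), Gata4 (26.8 CPM) and, on 2 UMIs with an interval that spans 1, Prox1 (2.02-fold, 0.234 to 7.93). Outside these lists, the genes with the highest ratios included Lgals2, Trap1a, Cited1, Fxyd2, Car7, Gstm1 and Phlda2, with Lgals2 at 1534 CPM against 1.24 CPM in the rest.

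Correlations between the members over the 27 WT endoderm cells ran from 0.88 to -0.49. For the 28 genes with UMIs in at least 50% of the cells, 287 of 378 pairs had a Spearman correlation above 0, 71 had 0.6 or more and 18 had -0.3 or less; these are descriptions over cells of 1 library that share depth and total. A group of secreted products went with Afp: Trf (0.87), Apoa4 (0.83), Fga (0.81), Fgg (0.81), Apoa2 (0.78) and Serpina1a (0.78). Each cell was also thinned to 10000 UMIs in a single random draw, which left 25 cells. The correlations of Afp with Trf, Apoa4, Fga, Fgg, Apoa2 and Serpina1a were then 0.90, 0.78, 0.72, 0.81, 0.80 and 0.72. Rbp4 went with Apom (0.84, thinned 0.71) and Ttr with Apoa1 (0.78, thinned 0.80). Serpina1a and Serpina1b had the highest value of all pairs, 0.88 (thinned 0.80), beside the near identity of their transcripts. Neighbouring genes were not always alike: Fga and Fgg had 0.70, Apoa1 and Apoa4 0.52, and Apoc1 and Apoc2 0.22.

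Several genes stood apart from this group. Spink3 had negative values with Fgg (-0.49, thinned -0.28) and Afp (-0.37, thinned -0.28), and Fabp1 with Rbp4 (-0.49, thinned -0.44) and S100g (-0.46, thinned -0.42). The median correlation of a gene with the others was highest for Serpina1a (0.58), Spp2 (0.57) and Fgb (0.55) and lowest for Spink3 (-0.13), Slc39a4 (-0.12) and Fabp1 (-0.03). Lrp2 had values near 0 with several secreted products before thinning and negative ones after it, with Apoa2 at -0.08 (thinned -0.67), Spp2 at -0.12 (thinned -0.54), Afp at 0.07 (thinned -0.51) and Trf at 0.11 (thinned -0.47). The receptor parts Cubn and Amn, which form 1 complex, had 0.12, and Cubn and Lrp2 0.41 (thinned 0.20). Depth and RNA quality moved with some genes. Total UMIs had a correlation of 0.61 with Fga, 0.57 with Trf, 0.51 with Afp and -0.38 with Spink3, and the mitochondrial share one of 0.61 with Cubn, 0.41 with Apob and -0.48 with Apom; their part in the pattern was not tested beyond the thinning.

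**Figure D3:**
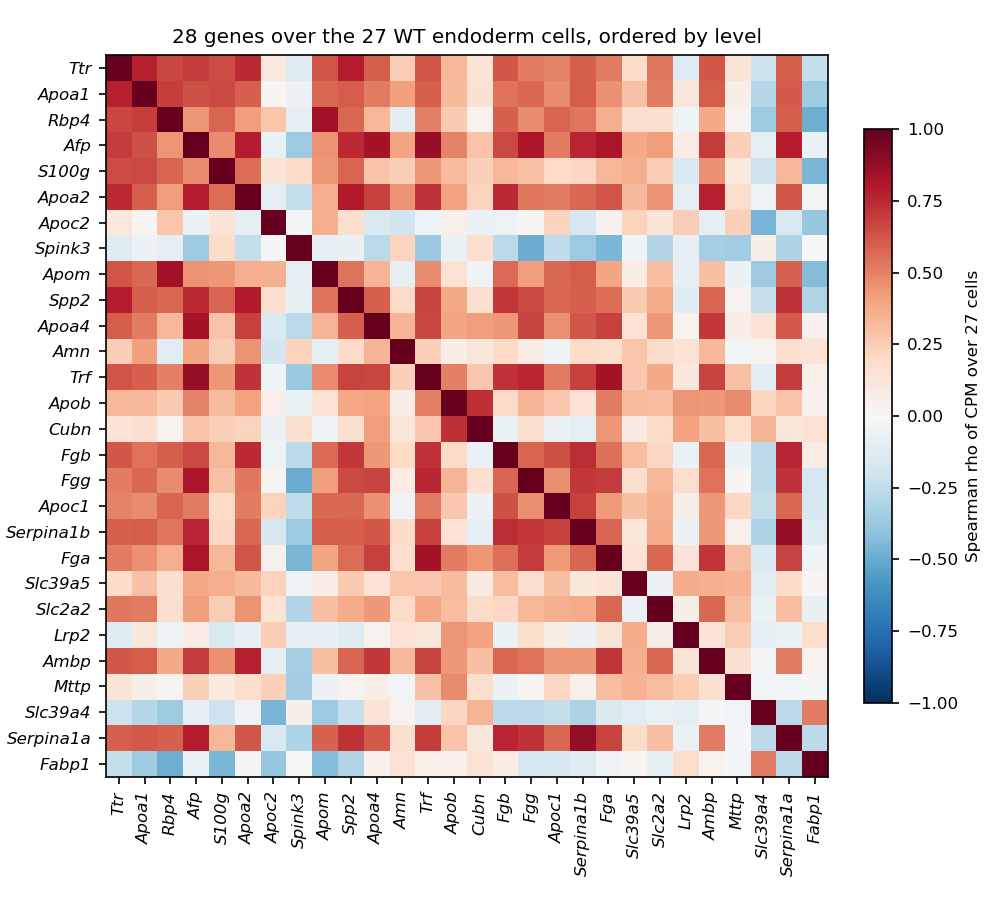
Spearman correlation of CPM over the 27 WT endoderm cells for 28 genes, ordered on both axes by level from Ttr to Fabp1 (red positive, blue negative). The broad red area holds Ttr, Apoa1, Afp, Apoa2, Spp2, Trf, the fibrinogen chains and Serpina1a and Serpina1b, while the rows of Spink3, Apoc2, Slc39a4 and Fabp1 are pale or blue.

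The WT barcodes that passed the gate with over 10% mitochondrial UMIs, which were left out above, had another balance of the 33 genes. The 14 barcodes had a median of 12425 UMIs, against 27677 in the 28 with less. Cubn stood at 1550 CPM (1370 to 1747) in the high-mitochondrial barcodes and 705 CPM (647 to 767) in the others, a ratio of 2.2, Apob at 1811 and 934 CPM and Lrp2 at 273 and 157 CPM. Serpina1b stood at 186 and 369 CPM, Apom at 1927 and 3311 CPM, Apoa1 at 9421 and 13843 CPM and Rbp4 at 8922 and 12591 CPM. Afp (7314 and 8250 CPM), Ttr (16874 and 18576 CPM) and Apoa2 (5648 and 5746 CPM) were close in both. Cubn, Lrp2 and Apob were thus higher in the high-mitochondrial barcodes while several secreted products were lower.

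Over the whole libraries, the 33 genes summed to 116 CPM in Baf155 CKO and to 2827 CPM in WT. Of the 33, 30 reached 20 UMIs, summed over the libraries. Of these, 29 were at least 2-fold lower in Baf155 CKO, where 7.01% of 13587 genes were, and 0 at least 2-fold higher, where 6.45% were, with a median log2 ratio of -4.48 against -0.04 over all genes. Most of the WT UMIs of these genes lay in the same 27 endoderm cells, a median of 98.0% of a gene's UMIs and least for Apoc1 (55.8%), Lrp2 (60.6%), Fabp1 (72.3%) and Trf (74.2%), so the 29 do not stand for 29 separate changes. Genes such as Fga and Serpina1c, with 0 UMIs in Baf155 CKO, reached 20 UMIs through WT alone. For such genes the direction was fixed by that minimum, so the count of 29 is a description. Afp had 47 UMIs (1.75 CPM) in Baf155 CKO and 6432 UMIs (267 CPM) in WT, a ratio of 0.00655 (0.00481 to 0.00873). Ttr had 306 and 14184 UMIs (ratio 0.0194), Apoa1 237 and 10687 (0.0199), Apoa2 61 and 4473 (0.0122), Spp2 11 and 1670 (0.00591), and Fga 0 and 270. The smallest reductions were those of Rbp4 with 1059 UMIs in Baf155 CKO and 9531 in WT (0.0997, 0.0935 to 0.106), Trf (0.108), Ambp (0.136), Serpina1a (0.155), Apoc1 (0.178), Mttp (0.222), Slc39a4 (0.274) and Lrp2 (0.385, 0.295 to 0.499). Fgl1, with 24 and 15 UMIs, was the gene not past the fold (1.44, 0.723 to 2.94).

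What remained in the Baf155 CKO library lay in few cells. A second set of cells was defined after the values had been seen, by Epcam and Cldn6, genes of epithelial adhesion and tight junctions, at 0.1% of UMIs or more outside the endoderm gate. It held 4 Baf155 CKO cells (0.476%, 0.13 to 1.21%) and 6 WT cells (0.765%, 0.281 to 1.66%). The 4 Baf155 CKO cells held 2277 of the 3127 UMIs of the 33 genes in that library (72.8%), and the 6 WT cells 642 of 68218 (0.941%). The 33 genes made 2.59%, 2.06%, 3.01% and 0.39% of the UMIs of the 4 Baf155 CKO cells, and 1.67%, 1.63%, 0.155%, 0.284%, 0.251% and 0.0994% of those of the 6 WT cells. All 10 thus lay below the lowest of the 27 endoderm cells, at 3.57%. All 4 Baf155 CKO cells and 5 of the 6 WT cells carried Xist UMIs and no Y-linked UMIs.

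The part of the list seen in these Epcam-Cldn6 cells differed between cells, and 1 Baf155 CKO cell, described below, had genes that the others lacked. Rbp4 had 49, 232, 602 and 50 UMIs in the 4 Baf155 CKO cells, and 136, 90, 6, 15, 2 and 2 in the 6 WT cells. Spink3 had 129, 22, 59 and 7 UMIs in the Baf155 CKO cells, and 75, 54, 5, 1, 18 and 9 in the WT cells. Both genes were thus seen in 10 of 10 cells and spanned a wide range in both genotypes. Summed over the 10 cells, Rbp4 stood at 0.466 (0.438 to 0.495) and Spink3 at 0.537 (0.481 to 0.599) of their level in the WT endoderm cells, while Ttr stood at 0.0828, Apoa1 at 0.0672 and Afp at 0.0326. Summed over these cells, the ratio of Baf155 CKO to WT was 3.64 for Rbp4 (3.16 to 4.2) and 3.43 for Ttr (2.63 to 4.53). It was 23.1 for Apoa1 (11.5 to 54.3), 1.31 for Spink3 (1.06 to 1.62) and 0.416 for Afp (0.221 to 0.75). These ratios rest on 4 and 6 cells, and their intervals leave out the spread between cells. Of 933 Rbp4 UMIs in Baf155 CKO, 602 lay in 1 cell, and of 189 Apoa1 UMIs, 142 lay in another. Without the deepest Baf155 CKO cell, described next, the levels relative to endoderm cells were 0.546 for Rbp4, 0.433 for Spink3, 0.0613 for Ttr, 0.0229 for Apoa1 and 0.0398 for Afp. Ttr had 126, 36, 85 and 2 UMIs in the Baf155 CKO cells, and 43, 15, 5, 3, 5 and 0 in the WT cells. Afp had 0, 10, 2 and 5 UMIs in the Baf155 CKO cells, and 8, 22, 5, 0, 3 and 2 in the WT cells. Serpina1a stood at 1.56 (1.04 to 2.29) and Fabp1 at 1.38 (0.895 to 2.08) of their endoderm level; Fabp1 owed 28 of its 33 UMIs to 2 WT cells.

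One of the 4 Baf155 CKO cells differed from the other 9 cells. It was the deepest at 37783 UMIs and the nearest to the gate at 0.709%, and it had 172 UMIs of Apoc2, 142 of Apoa1, 112 of Apom, 63 of Amn, 44 of S100g, 25 of Fgb, 20 of Apoa4, 17 of Apoc1, 15 each of Apoa2 and Cubn and 7 of Slc39a5. The other 9 cells had 0 UMIs of Apoa2, Apoa4, Apoc1, Apoc2, Cubn, Amn and Slc39a5. At the depth of this deepest cell the WT endoderm level would give 147 UMIs of Apoc2, 126 of Apom and 42.8 of Amn. It would give 26.3 of Fgb and 14.5 of Apoc1, so these genes stood near or above that level. Other genes stood well below it, with 126 UMIs of Ttr (703 at that level), 142 of Apoa1 (533) and 49 of Rbp4 (462). S100g (44 UMIs, 265 at that level) and Apoa2 (15, 222) were also below it. Yet the cell had 0 UMIs of Afp, where that level would give 318. It also had 0 UMIs of Foxa1 and of Smarcc1. Smarcc1 had 19 UMIs over all 27 WT endoderm cells, so beside that level a 0 in 1 cell says little. Foxa1 UMIs were seen in each of the other 9 cells, between 1 and 14 per cell, and in none of the 27 endoderm cells, whereas Hnf4a was at 0 in all 10 and at 67 UMIs over the 27. Smarcc1 was not at 0 in the rest: the 4 Baf155 CKO cells had 0, 1, 7 and 5 UMIs (124 CPM, 65.9 to 212) and the 6 WT cells 5, 4, 1, 2, 3 and 2 (165 CPM, 96.4 to 265), while the WT endoderm cells stood at 25.4 CPM (15.3 to 39.7).

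**Figure D4:**
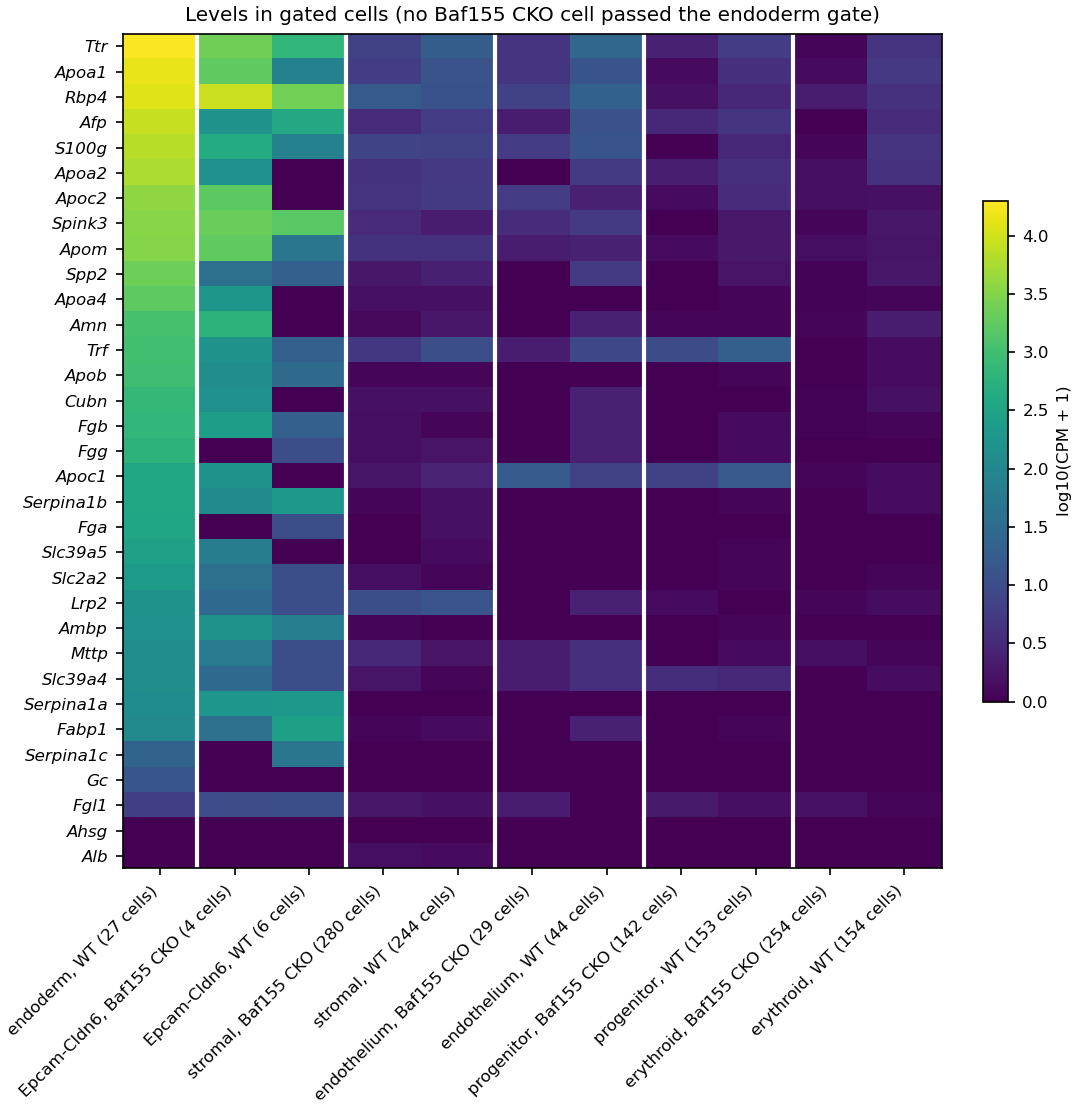
Level of the 33 genes as log10(CPM + 1) in gated cells, genes in rows by their level in WT endoderm cells and cell sets in columns, Baf155 CKO left of WT within each set. The endoderm column has WT cells only. The Epcam-Cldn6 columns keep Rbp4, Spink3 and Ttr, and in Baf155 CKO also Apoa1, Apom and Apoc2. The stromal, endothelial, progenitor and erythroid columns are darker. Their higher values include Ttr in WT stromal (17.5 CPM) and WT endothelial cells (25.4 CPM). Lrp2 in WT stromal cells (12.7 CPM) and Trf (19.0 CPM) and Apoc1 (15.0 CPM) in WT progenitor cells are others.

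Outside the endoderm and Epcam-Cldn6 cells, at least 1 UMI of the 33 genes was seen in 44.1% of Baf155 CKO and 73.9% of WT cells. The genes summed to 31.7 CPM (29.6 to 33.9) in 837 Baf155 CKO cells and to 66.5 CPM (63.2 to 69.9) in 751 WT cells, at median depths of 28268 and 28395 UMIs. At least 1 UMI of Afp, Ttr or Apoa1 was seen in 9.44% of these Baf155 CKO cells and in 35.7% of these WT cells. Together those 3 genes stood at 5.04 CPM (4.22 to 5.96) in Baf155 CKO and 18.3 CPM (16.6 to 20.2) in WT. Of 16 genes of the list with at least 20 UMIs, 7 were at least 2-fold lower in Baf155 CKO, where 5.06% of 13367 genes were, and 0 were at least 2-fold higher, where 6.78% were. The median log2 ratio was -0.85 over the 16 and -0.02 over all genes. Ttr had a ratio of 0.248 (0.181 to 0.334), Spp2 0.264 (0.0958 to 0.636), Afp 0.286, Apoa1 0.307, Apoc1 0.325, Trf 0.352 and Apoa2 0.5. Apoc2 (0.552) and S100g (0.559) followed, whereas Rbp4 (0.842, 0.654 to 1.08), Apom (0.842), Spink3 (0.833) and Lrp2 (0.925, 0.67 to 1.28) were near 1. Above 1 were Mttp (1.25, 0.632 to 2.53), Slc39a4 (1.41, 0.793 to 2.55) and Fgl1 (2.0 after rounding, 0.915 to 4.7).

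UMIs that reach other cells from 1 source keep the ratios of that source. Each gene's count was therefore set beside the count that the WT endoderm profile gives when scaled to Afp. Over the WT cells outside both sets, with 91 Afp UMIs, 200 Ttr UMIs were counted where the profile gives 201 (ratio 0.995, 0.772 to 1.29), 130 of Rbp4 where it gives 132 (0.984, 0.745 to 1.3) and 136 of Apoa1 where it gives 152 (0.893, 0.679 to 1.18). S100g (1.11), Apoa2 (1.26), Spp2 (0.968), Apom (0.891) and Amn (1.15) also had ratios near 1, while Apoa4 lay below the profile (0.386, 0.15 to 0.83) and Apoc2 above it (1.5, 1.07 to 2.1). Within single cell types the ratios spread further: in WT stromal cells Ttr had 1.71 (1.1 to 2.74) and Rbp4 1.64 (1.02 to 2.71), and in WT progenitor cells Rbp4 had 0.407 (0.188 to 0.845) and Apoa1 0.489 (0.247 to 0.956). How much of these UMIs came from endoderm cells was not tested.

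For 6 genes the WT counts were far above the profile. They were Apoc1 (54.8-fold, 41.5 to 72.5), Lrp2 (44.4-fold, 30.6 to 64.1), Trf (23.8-fold, 18.5 to 31.0), Slc39a4 (14.7-fold, 8.32 to 24.9), Mttp (11.1-fold, 5.85 to 19.8) and Fgl1. The Fgl1 value was the least certain, 173-fold (48.5 to 764), from 10 UMIs there and 4 in the endoderm cells. They were 6 of 17 genes with at least 10 UMIs. Where they stood differed by cell type. Lrp2 UMIs lay in stromal cells, 68 UMIs in 280 Baf155 CKO cells (9.91 CPM, 7.7 to 12.6) and 71 UMIs in 244 WT cells (12.7 CPM, 9.9 to 16.0), 223 and 143 times the profile. In progenitor cells Lrp2 had 2 UMIs in 142 Baf155 CKO cells and 0 in 153 WT cells. Trf and Apoc1 stood above the profile in progenitor cells of both libraries and in WT macrophage-gated cells, and Trf also had 27 UMIs in Baf155 CKO and 55 in WT stromal cells (14.1 and 17.7 times the profile) and Apoc1 13 UMIs in 5 of 29 Baf155 CKO endothelial cells. In progenitor cells Trf stood at 8.84 CPM (6.54 to 11.7) in Baf155 CKO and 19.0 CPM (15.7 to 22.9) in WT, 37.3 and 43.4 times the profile. Apoc1 stood there at 5.95 CPM (4.1 to 8.36) in Baf155 CKO and 15.0 CPM (12.1 to 18.5) in WT, 65.9 and 89.8 times the profile. In WT macrophage-gated cells, 23 in number, Trf stood at 37.6 CPM and Apoc1 at 40.2 CPM. In erythroid cells Trf had 0 UMIs in 254 Baf155 CKO cells and 2 in 154 WT cells (1.2 times the profile, 0.132 to 5.23), and Apoc1 2 UMIs in each library (in WT 3.14 times the profile, 0.344 to 13.8).

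Shares of cells showed the same split. Trf UMIs were seen in 22.5% (16.0 to 30.3%) of Baf155 CKO and 41.2% (33.3 to 49.4%) of WT progenitor cells, at median depths of 34804 and 41844 UMIs, against 0% and 1.3% of erythroid cells, at 35265 and 33016 UMIs. Thinned to 10000 UMIs, the progenitor shares were 7.34% in Baf155 CKO and 17.5% in WT. Lrp2 UMIs were seen in 18.6% of Baf155 CKO and 21.3% of WT stromal cells, at median depths of 21912 and 22428 UMIs, and in 9.08% and 10.4% after thinning. The shares of progenitor cells with an Lrp2 UMI were 1.41% in Baf155 CKO and 0% in WT. Slc39a4 had 15 UMIs in Baf155 CKO and 13 in WT progenitor cells, 86.8 and 37.6 times the profile, and Mttp 14 UMIs in Baf155 CKO stromal cells, 55.1 times the profile, and 4 in WT stromal cells.

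In the Baf155 CKO library the profile was scaled on few Afp UMIs, 16 in stromal and 11 in progenitor cells, and no endoderm cell of that library gives a profile of its own. In stromal cells 8 of 11 genes were above the WT profile, among them Rbp4 with 104 UMIs (4.48-fold, 2.63 to 8.13), S100g (3.46-fold), Apom (3.48-fold) and Spink3 (2.48-fold), against 3 of 9 in WT stromal cells. Neither count has a share over all genes beside it, and their difference was not tested. Rbp4, Spink3 and Apom had 933, 217 and 185 UMIs in the 4 Epcam-Cldn6 cells of that library. Between stromal cells of the libraries, 3 of 11 genes were at least 2-fold lower in Baf155 CKO, where 3.53% of 11063 genes were, and 0 at least 2-fold higher, where 6.32% were. The 3 were Ttr (0.342, 0.231 to 0.497), Trf (0.401) and Apoa1 (0.433). Between progenitor cells 5 of 7 were at least 2-fold lower, where 3.76% of 10232 genes were, and 0 at least 2-fold higher, where 7.92% were. The 5 were Apoa1 (0.12), Ttr (0.288), Apoc1 (0.396, 0.257 to 0.596), Apoa2 (0.42) and Trf (0.464, 0.325 to 0.654). The level of endoderm RNA in the whole library moved the same way, with Ttr at 11.4 CPM in Baf155 CKO and 588 CPM in WT, and its part in these ratios was not tested.

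**Figure D5:**
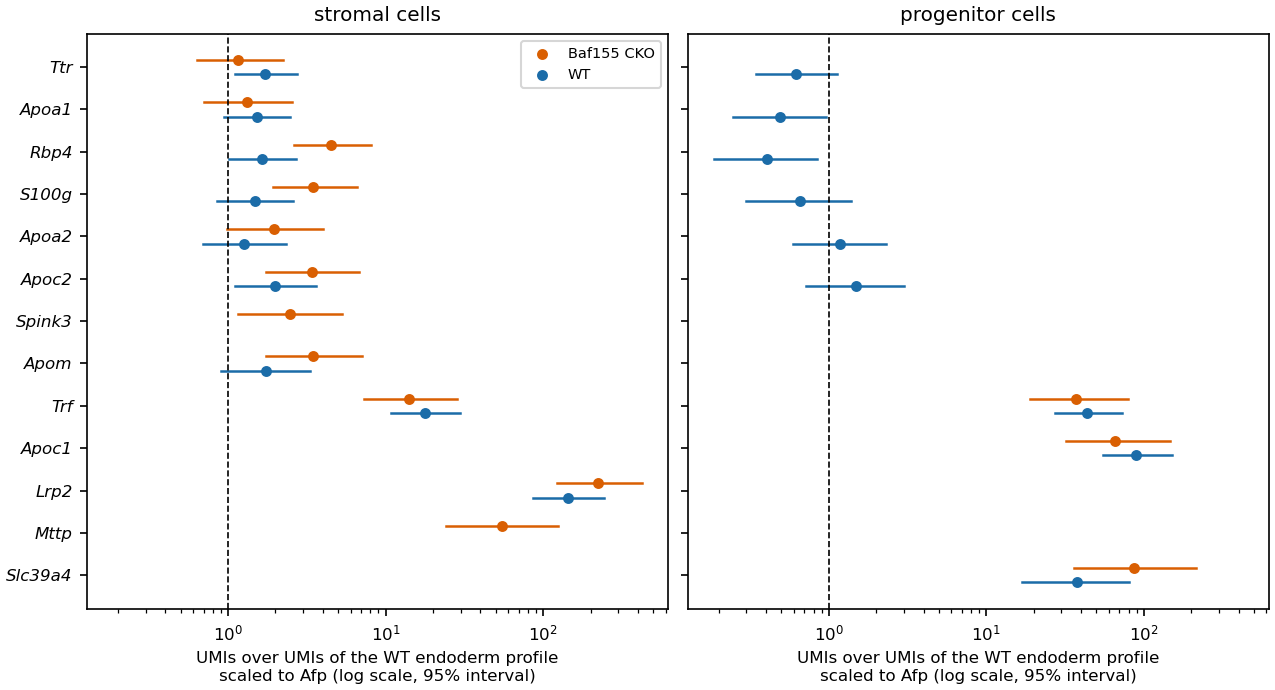
UMIs counted over UMIs that the WT endoderm profile gives when scaled to Afp (horizontal log axis, with 95% intervals), for genes with at least 10 UMIs in stromal cells (left) and progenitor cells (right), Baf155 CKO in orange above WT in blue. In WT, Ttr, Apoa1, S100g and Apoa2 lie between 0.489 (Apoa1, progenitor cells) and 1.71 (Ttr, stromal cells) around the dashed line at 1, Lrp2 stands out in stromal cells at 223 in Baf155 CKO and 143 in WT, and Trf, Apoc1 and Slc39a4 stand out in progenitor cells.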

How the data were processed

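The deposited matrices hold raw UMI counts per gene and barcode, which the authors made with Cell Ranger on GRCm38, per the submitters' processing notes; Seurat is also named, both without a version. The tools were scipy 1.17.1, scanpy 1.11.5, numpy 2.4.6, matplotlib 3.10.9 and pandas 2.3.3 under Python 3.11.15. A barcode was dropped if it had fewer than 500 genes, over 10% mitochondrial UMIs or a doublet call by Scrublet (each library alone, expected rate 1%, seed 0; 6 Baf155 CKO and 3 WT barcodes). Endoderm cells had Afp, Ttr and Apoa1 at 1% of UMIs or more. Other gates were set on summed marker UMIs after the distributions had been seen: erythroid 2% (Hbb-y, Hbb-bh1 and Hba-x), progenitor 0.075%, macrophage 0.1%, megakaryocyte 0.1%, endothelium 0.15% and stromal 0.05%; a cell past more than 1 gate was left out of them. CPM are summed UMIs of a gene scaled to the summed UMIs of the set, with exact Poisson intervals. Shares have exact Clopper-Pearson intervals and ratios conditional binomial ones. Only the ratio intervals were run on simulated data, which were independent Poisson counts without clustering of UMIs by cell. The floor for a count of 0 was 3 counts, and a gene at 0 in 1 set was counted as higher or lower only in the direction that this floor bounds. PCR duplicates were already removed by the UMIs, but UMIs of 1 cell are not independent, so the intervals understate the spread between embryos. Genes compared between sets had at least 20 UMIs over both; a gene was named above the endoderm profile at over 2-fold with the interval above 1 and at least 10 UMIs. All 33 members are reported, the 4 most abundant genes of each related list, and the 8 outside genes with the largest ratio of endoderm to other cells (5 CPM added, at least 100 UMIs, no predicted genes). A few genes that this rule names are not reported here. The 33 genes, lists and tests were chosen with earlier results of these data known. Alternatives covered the gate, filters, doublets, denominator, other gates, the scaling gene, the UMI minimum and thinning.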

Additional observations from a re-analysis of the deposited data

How the results depend on the processing

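The absence of Baf155 CKO endoderm cells held at gates of 2% and 5%, with doublets kept, without the mitochondrial limit and within Xist-positive and Y-positive cells, while 1 cell (0.119%) passed at 0.5% and 3 cells (0.357%) at 0.3%, a gate added after seeing the data. The WT share was 0.893% at a gate of 5% and 5.05% without the mitochondrial limit, against 3.44%. The summed level in WT endoderm cells, 88313 CPM, was 91443 CPM at a gate of 2%, 114172 CPM at 5%, 85475 CPM as a mean over cells and 85687 CPM without the mitochondrial limit. At a gate of 5%, 5 genes moved by over 1.5 times (Afp, Ambp, Serpina1a, Apoa4 and Apob, all higher, by up to 1.95 times). With gate thresholds doubled, 1 gene (Trf) and not 3 was above the endoderm profile in Baf155 CKO progenitor cells. The other 56 alternative values of the main comparisons kept their direction and stayed within counting error or 1.5 times; of the values for single genes and correlations, 206 stayed within the counting interval, 0.5 on the log2 scale or 0.1 in correlation and 51 did not, most of them at a gate of 5% or 2%, as a mean over cells or without the mitochondrial limit. The log2 ratio of the summed CPM of the 33 genes, Baf155 CKO over WT over the whole libraries, lay between -4.84 and -4.56.

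The ratio of Baf155 CKO to WT inside the endoderm gate, with its alternatives, has no value, since 0 Baf155 CKO cells passed. No paired analysis was possible because each genotype has 1 library, and none can be left out. Counts limit what can be said of Gc, Fgl1, Alb, Ahsg and Serpina1c, with 17 UMIs or fewer in the endoderm cells, and of each of the 10 Epcam-Cldn6 cells.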
